A study of Mus musculus with 63 samples.

Results

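The miRNA content of kidney macrophages (Macs) was compared with that of the other sorted kidney cells in uninjured, sham-operated mice. The Macs were the 4 sham libraries sorted on F4/80, and they were set against the 12 sham libraries of endothelial cells (ECs, sorted on CD31), proximal tubular (PT) cells (sorted with the lectin LTL) and PDGFR-β+ cells, with 4 libraries for each cell type. These 16 libraries were chosen by their labels alone, out of 63 sorted libraries in the series. All mice were male C57BL/6, 8 to 12 weeks old, with no engineered allele named. Sham mice had an operation without ureteric obstruction; the day on which they were culled was not given in the sources used here. The remaining libraries came from mice 2 days (UUO-2) or 7 days (UUO-7) after unilateral ureteric obstruction or 2 weeks after its surgical reversal (R-UUO), and they entered 1 comparison only. Each mouse gave 1 library of each cell type, so the comparison was paired by mouse. The study's methods give CD45 and high F4/80 staining as the macrophage gate, while the other 3 gates excluded CD45+ cells. The F4/80 gate did not separate macrophage subsets, and the 4 mice of each condition were picked from a larger group as those nearest the group's mean expression of Havcr1, a tubular injury gene.

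miRNAs are short RNAs cut from a hairpin, whose 5p and 3p arms can each become a mature strand. The mature strand guides Argonaute to messenger RNAs mainly through its seed, the bases 2 to 8 from its 5′ end, so miRNAs with 1 seed are grouped as a family. miR-142 and miR-223 are known as haematopoietic miRNAs, miR-223 above all of myeloid cells. miR-146a and miR-155 are known as a brake on, and a promoter of, inflammatory signalling in macrophages, and miR-21 is known for its part in inflammation and fibrosis. The mature strands that carry the main differences follow, 5′ to 3′ as in RefSeq on GRCm38.p6, with the seed in capitals. The first set was higher in Macs than in each other cell type.

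miR-142a-5p: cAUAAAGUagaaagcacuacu
miR-142a-3p: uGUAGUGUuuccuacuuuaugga
miR-223-3p: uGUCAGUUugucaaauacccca
miR-342-3p: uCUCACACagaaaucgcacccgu
miR-511-3p: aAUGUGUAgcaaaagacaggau
miR-146a-5p: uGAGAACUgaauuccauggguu
miR-146b-5p: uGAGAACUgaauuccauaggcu
miR-21a-5p: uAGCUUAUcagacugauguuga

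The next set was lower in Macs than in each other cell type, miR-10a-5p under 1 of the 2 scalings described below, and miR-10a-5p and miR-10b-5p share a seed and are identical at 22 of 23 positions.

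miR-10a-5p: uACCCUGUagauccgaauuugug
miR-10b-5p: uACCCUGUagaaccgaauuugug
miR-196b-5p: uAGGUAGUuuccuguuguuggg
miR-130a-3p: cAGUGCAAuguuaaaagggcau
let-7b-5p: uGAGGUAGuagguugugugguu

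The last set holds pairs with 1 seed whose members moved apart in Macs against the mean of the other cell types. miR-27a-3p was higher in Macs than in PT cells but not than in ECs. miR-92a-3p and miR-92b-3p share 19 positions, miR-27a-3p and miR-27b-3p share 20 of 21, and miR-130b-3p shares 20 of 22 with miR-130a-3p above.

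miR-92a-3p: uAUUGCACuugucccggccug
miR-92b-3p: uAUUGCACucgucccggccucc
miR-27a-3p: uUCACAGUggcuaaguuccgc
miR-27b-3p: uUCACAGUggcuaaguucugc
miR-130b-3p: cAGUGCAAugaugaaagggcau

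The table of read counts held 2110 miRNA loci with 1966 mature names, of which 478 loci passed the filter on low counts and were tested. Total counts were 2105184 to 6095639 in Macs, 7395011 to 10819385 in ECs, 2732682 to 7932031 in PDGFR-β+ cells and 622689 to 987306 in PT cells, so that 3 counts stood for at most 0.854 CPM (counts per 1e6 counts) in Macs but 2.28 to 3.46 CPM in PT cells. The 10 most abundant loci took 59% to 60.1% of counts in Macs and 80.9% to 82.6% in PDGFR-β+ cells. Levels below are CPM after TMM scaling (trimmed mean of M-values, which sets libraries on the ratio of most loci), and differences are log2 folds from edgeR's quasi-likelihood test with Benjamini-Hochberg adjusted p; a locus was called at an adjusted p under 0.05 and a fold over 1.5. The scaling mattered here: the median log2 difference over all tested loci between Macs and the mean of the other cell types was -0.26 with TMM and 0.67 with library size only. Of the calls, 45.4% were higher in Macs with TMM and 70.4% with library size only. A small difference can therefore depend on the scaling, and unless stated otherwise values are those with TMM.

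Against the mean of the other 3 cell types, 132 of 478 loci (27.6%) were higher in Macs and 159 (33.3%) were lower. Against ECs, 121 loci (25.3%) were higher and 182 (38.1%) lower, against PT cells 137 (28.7%) and 139 (29.1%), and against PDGFR-β+ cells 157 (32.8%) and 173 (36.2%). A locus was higher than each other cell type when all 3 comparisons called it, which 84 loci (17.6%) did, and 55 loci (11.5%) were lower than each. With library size only, all 84 of the first set were called again, but only 18 of the 55. In 86 loci (18%) the 4 Mac libraries lay above all 12 others, and in 50 (10.5%) below them. Each cell type came as a bulk sort, in which fewer cells of a type and less RNA per cell cannot be told apart.

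**Figure D1:**
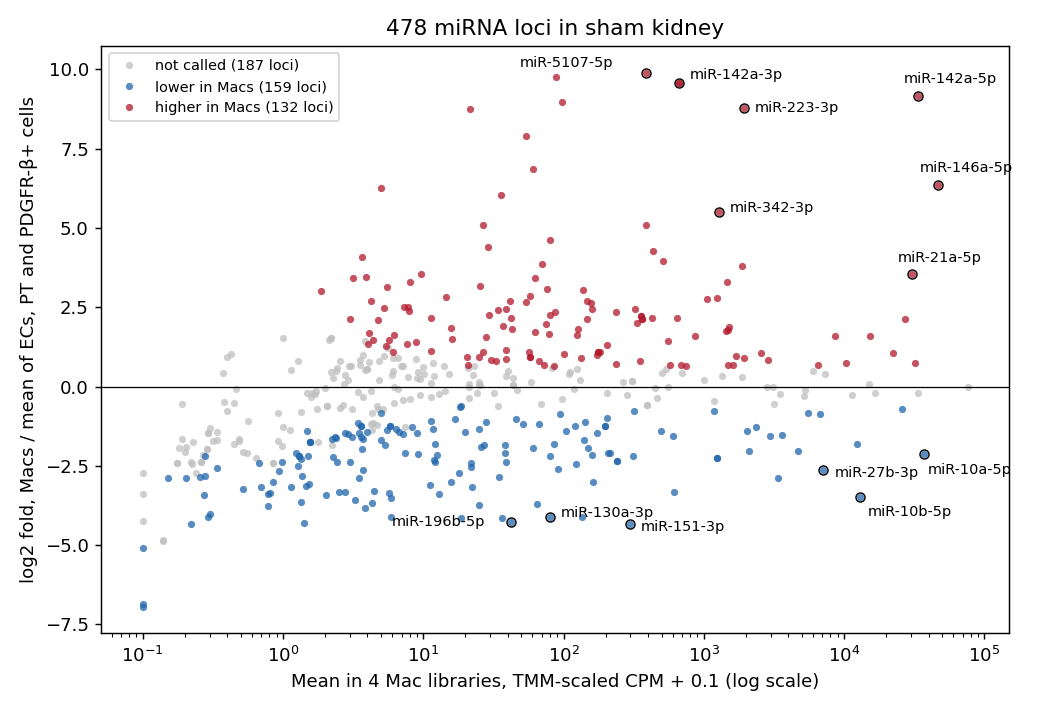
Each point is 1 of the 478 tested loci. The x axis is its mean TMM-scaled CPM in the 4 Mac libraries plus 0.1, on a log scale, and the y axis its log2 fold between Macs and the mean of the other 3 cell types. Red marks the 132 loci called higher in Macs, blue the 159 called lower and grey the rest. let-7f-5p and miR-26a-5p, among the most abundant loci in Macs, lie near 0 (-0.03 and -0.19), while miR-142a-5p lies at 9.17.

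The sort was checked against markers of each cell type. The 8 loci of leukocyte miRNAs summed to 34200 to 40600 CPM in Macs against 135 to 223 in PDGFR-β+ cells and 100 to 146 in PT cells. ECs had 3150 to 3970, nearly all from miR-150-5p, an miRNA of mature lymphocytes. The endothelial markers miR-126a-5p and -3p summed to 306 to 3070 CPM in Macs and 146000 to 177000 in ECs. The tubule markers (5 loci) summed to 3370 to 4780 CPM in Macs and 103000 to 130000 in PT cells, mostly from miR-192-5p. Not every tubule marker was highest in PT cells. miR-204-5p held 91.3 to 143 CPM in PT cells but 2170 to 3750 in ECs and 507 to 1500 in PDGFR-β+ cells. miR-215-5p held at most 3.72 CPM in PT cells and 2.3 to 3.04 in Macs. The epithelial miR-200 family (5 loci) summed to 499 to 642 CPM in Macs and 5450 to 6140 in PT cells. Its member miR-141-3p went against this, at 103 to 156 CPM in Macs and 65.7 to 110 in PT cells. With library size only it was called higher in Macs than in ECs (2.03), PT cells (0.82) and PDGFR-β+ cells (0.6). The mural and fibroblast markers (6 loci) summed to 1830 to 4470 in Macs and 314000 to 429000 in PDGFR-β+ cells, and the red cell markers (3 loci) to at most 2.3 CPM in Macs. Libraries stood apart in places. Mac replicate 4 was the highest Mac library for miR-126a-5p, at 2590 CPM against 965, 239 and 1190. PDGFR-β+ replicate 3 held 51.7 CPM of miR-223-3p, while its group otherwise held 2.7 to 3.84.

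The leukocyte miRNAs set Macs far apart from the rest. Of 8 loci tested, 6 were higher in Macs than in each other cell type, 0 were lower and 2 were not called, with a median log2 difference of 7.14; over all loci 17.6% were higher than each and the median was -0.26. The 8 leukocyte names and all later lists were chosen with earlier results of these data known. miR-142a-5p, at chr11:87756867-87756887 in an intron of Mir142hg, held 35800, 35900, 29800 and 33700 CPM in the 4 Mac libraries (mean 33800 ± 2830 SD, n = 4). ECs held 19.3 to 57.5 CPM, PDGFR-β+ cells 46.3 to 114 and PT cells 67.5 to 103. Every Mac library was far above every other library, and the log2 difference was 9.17 (SE 0.234, edgeR adjusted p = 1.3e-13). The opposite arm, miR-142a-3p, held 663, 581, 814 and 606 CPM in Macs and no more than 2.4 CPM in any other library (log2 difference 9.58, SE 0.288, edgeR adjusted p = 4.93e-13). miR-142b is annotated on the same bases and had nearly the same counts, so it is not a separate measurement.

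miR-223-3p, at chrX:96242884-96242905, held 2000, 1870, 1850 and 2040 CPM in Macs. ECs held 1.11 to 3.96 CPM, PT cells 3.73 to 6.91, and PDGFR-β+ cells 3.32, 2.7, 51.7 and 3.84. The groups did not overlap, and the log2 difference was 8.77 (SE 0.478, edgeR adjusted p = 3.6e-10), or 9.21 without PDGFR-β+ replicate 3. The other arm, miR-223-5p, held 89.4 to 106 CPM in Macs and at most 1.5 CPM elsewhere. miR-342-3p, which lies in an intron of Evl at chr12:108658680-108658702, held 1220, 1610, 1140 and 1210 CPM in Macs, 77 to 91 in ECs, 20.7 to 37.7 in PDGFR-β+ cells and 6.83 to 11.2 in PT cells. Its log2 difference was 5.52 (SE 0.138, edgeR adjusted p = 1.3e-13), and its 5p arm lay 5.09 higher. Unlike these, miR-150-5p was lower in Macs (151, 87.9, 103 and 134 CPM) than in ECs (3820, 3000, 3700 and 3290 CPM), with a log2 difference of -4.89 (edgeR adjusted p = 1.7e-11). It was higher in Macs than in PT cells (20.5 to 31.1 CPM) by 2.15 and than in PDGFR-β+ cells (12 to 28.8 CPM) by 2.53, and against the mean of the 3 it was not called (-0.07, edgeR adjusted p = 0.725, and 0.87 with library size only). miR-150-5p and the loci given below for hosts, clusters and split families, other than the most different ones, were named after their values were seen.

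**Figure D2:**
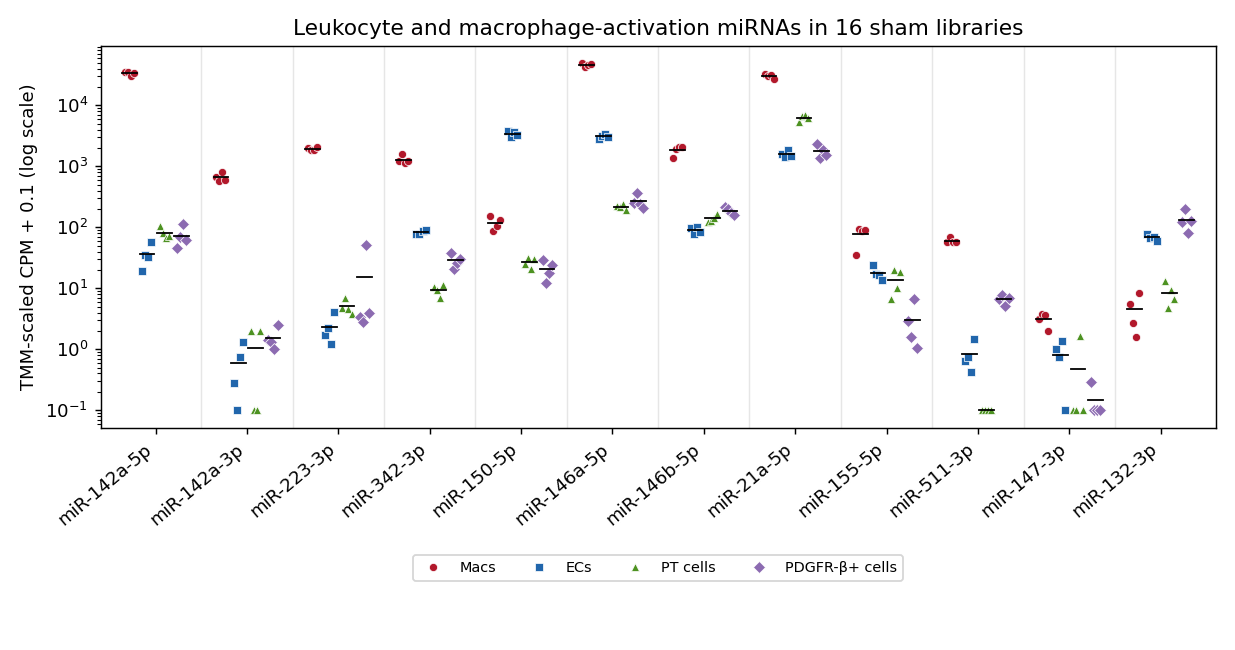
Each symbol is 1 of the 16 sham libraries, placed by its TMM-scaled CPM plus 0.1 on a log scale for leukocyte and macrophage-activation miRNAs. The 4 Mac libraries lie above the other 12 for miR-142a-5p, miR-223-3p, miR-342-3p, miR-146a-5p and miR-21a-5p, whereas miR-150-5p is highest in ECs.

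Some miRNAs that were higher in Macs lay in introns of Cd74 and Mrc1, genes known from myeloid cells. The hosts were looked up after the values were seen, and hosts of all loci were not tallied by function. miR-5107-5p lies in an intron of Cd74, the invariant chain of MHC class II, at chromosome 18. It held 281, 581, 362 and 319 CPM in Macs, and 5 of the other 12 libraries had any counts, at 0.477 to 3.73 CPM, with a log2 difference of 9.9 (SE 0.396, edgeR adjusted p = 1.2e-11). Its 3p arm held 77.7 to 98.7 CPM in Macs and no count in PDGFR-β+ cells, at least 61.3-fold lower by a floor of 3 counts per library. miR-511-3p lies in an intron of Mrc1, which encodes the mannose receptor, at chr2:14261051-14261072. It held 58.3, 68, 57.7 and 57.2 CPM in Macs, 0.318 to 1.38 in ECs and 5.07 to 7.51 in PDGFR-β+ cells. It had no count in any PT library, which puts PT cells at least 17.4-fold lower, and its 5p arm at least 15.5-fold lower. miR-7043-3p, in an intron of Rassf4, held 33.1, 32.2, 42.4 and 36 CPM in Macs and at most 4.32 CPM elsewhere (log2 difference 6.04, SE 0.537, edgeR adjusted p = 9.91e-08). The host genes' own RNA was not measured. miR-3964 held 22.3, 27, 13 and 24 CPM in Macs and was at least 15-fold lower in PDGFR-β+ cells, but 17 of its 20 bases match miR-142a-5p. Its level was 0.0436% to 0.0752% of that of miR-142a-5p in the Mac libraries, and whether its reads came from miR-142a-5p was not tested.

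The miRNAs known from macrophage activation and its restraint were divided. Of 19 loci tested, 9 were higher in Macs, each of them higher than each other cell type, while 9 were lower than the mean of the others and 1 was not called; over all loci 17.6% were higher than each and 33.3% lower than the mean. With library size only the count lower was 3 and the count higher stayed 9. The median log2 difference was -0.87 with TMM and 0.07 with library size only. miR-146a-5p, which restrains NF-κB signalling, was the second most abundant locus in Macs at 49100, 42200, 46300 and 48000 CPM. ECs held 2810 to 3380 CPM, PT cells 189 to 241 and PDGFR-β+ cells 206 to 364. The Mac libraries stood above all others, with ECs next, and the log2 difference was 6.37 (SE 0.109, edgeR adjusted p = 1.43e-15). miR-146b-5p, its relative from another chromosome, held 1390, 1950, 2070 and 2050 CPM in Macs and 77.5 to 216 elsewhere (log2 difference 3.81, SE 0.119, edgeR adjusted p = 7.24e-13). It matches miR-146a-5p at 20 of 22 positions and had 2.83% to 4.62% of its level in Macs.

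miR-21a-5p, from an exon of Vmp1 at chr11:86584120-86584141, held 32200, 30400, 31200 and 27600 CPM in Macs. PT cells came next with 5320 to 6910 CPM, ahead of ECs with 1440 to 1870 and PDGFR-β+ cells with 1390 to 2370. No libraries overlapped between Macs and the rest (log2 difference 3.54, SE 0.1, edgeR adjusted p = 4.21e-13), and the 3p arm was 4.27 higher. miR-155-5p was much scarcer, at 35.4, 95, 85.3 and 89.8 CPM in Macs against 13.4 to 23.8 in ECs, 0.96 to 6.46 in PDGFR-β+ cells and 6.51 to 19.6 in PT cells. Mac replicate 1 was the lowest of the 4 but still above every other library, and the log2 difference was 3.07 (SE 0.322, edgeR adjusted p = 6.62e-07). miR-147-3p, induced by Toll-like receptor signals, was close to the limit of detection at 1.92 to 3.7 CPM in Macs, yet called (edgeR adjusted p = 0.000227). On the lower side, miR-132-3p held 5.37, 2.56, 1.46 and 8.17 CPM in Macs against 59.3 to 76.8 in ECs and 80.3 to 200 in PDGFR-β+ cells, though PT cells (4.61 to 13 CPM) overlapped Macs. Its log2 difference from the mean was -3.28. miR-125a-5p, at 6240 to 7180 CPM in Macs and 23400 to 23800 in ECs, had a log2 difference of -0.87 with TMM but 0.07 with library size only.

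**Figure D3:**
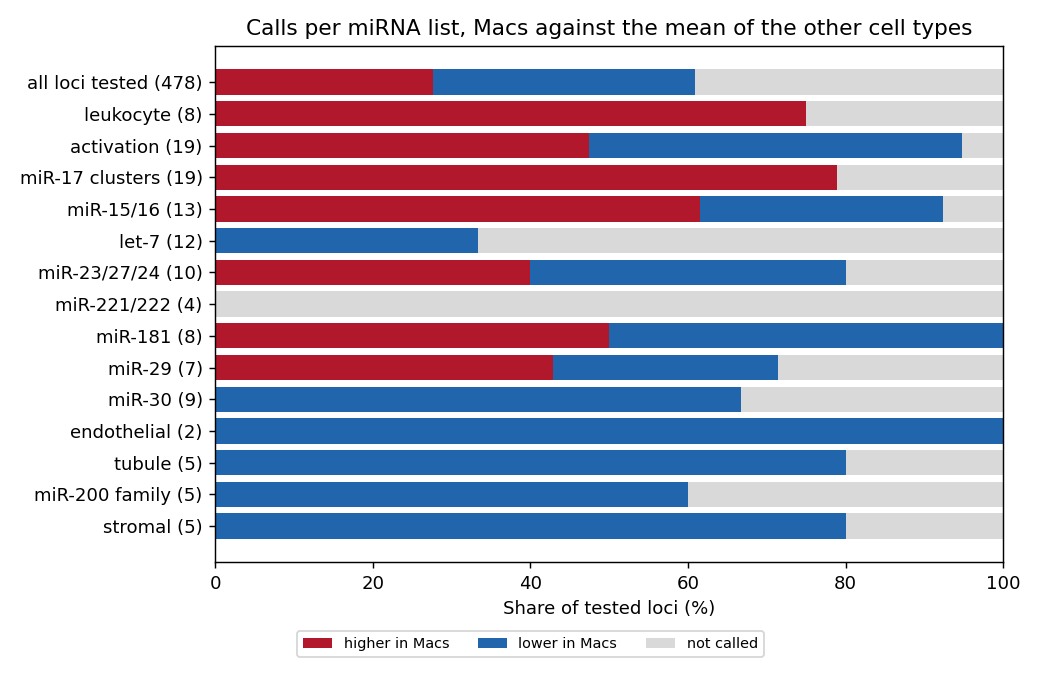
Each bar is 1 list of miRNAs, with the share of its tested loci in percent that were called higher in Macs (red), lower (blue) or not called (grey) against the mean of the other 3 cell types; the bar for all loci holds 27.6% and 33.3%. Leukocyte, miR-17 cluster and miR-15/16 loci are mostly red, and the bars for the markers of the other cell types hold no red. These calls are with TMM. With library size only, 1 tubule and 1 miR-200 family locus were called higher.

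Loci of the miR-17 clusters, known for promoting cell proliferation and haematopoietic development, were higher in Macs as a group. Of 19 tested, 15 were higher, 13 of them higher than each other cell type, and 0 were lower (median log2 difference 1.82), against 27.6% higher over all loci. The cluster on chromosome 14, chr14:115043684-115044496 in exons of Mir17hg, had 9 of 9 tested loci higher than each other cell type, with log2 differences of 1.82 to 4.39. Its most abundant product, miR-92a-3p, held 26100, 27200, 26700 and 28000 CPM in Macs. ECs held 11800 to 12500 CPM, PT cells 4450 to 5010 and PDGFR-β+ cells 3910 to 4690, so the groups were well apart (log2 difference 2.12, SE 0.062, edgeR adjusted p = 4.93e-13). The same mature sequence is made on chromosome X, and how reads were placed between the copies was not stated, so the level of each copy is uncertain. miR-17-5p was scarcer, at 113 to 137 CPM in Macs and at most 53 CPM in any other library. miR-18a-3p showed the largest difference of the cluster, with 25.9 to 32.1 CPM in Macs and at most 3.42 CPM elsewhere. The paralogous miR-106b/25 cluster in Mcm7 had 4 of 6 loci higher and 3 higher than each, including miR-93-5p at 1340 to 1530 CPM against 313 to 610 CPM.

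The miR-15/16 family, known for limiting the cell cycle and BCL2, had calls in both directions. Of 13 tested loci 8 were higher in Macs and 4 lower, the same counts with library size only, against 27.6% and 33.3% of all loci; the share lower is near that of all loci. Both miR-15/16 clusters were higher throughout, with 4 of 4 loci on chromosome 14 (Dleu2 intron) and 4 of 4 on chromosome 3 (Smc4 intron). The copy of miR-16-5p on chromosome 14 held 15200, 14500, 16300 and 15600 CPM in Macs and 4100 to 6720 CPM elsewhere, with no overlap (log2 difference 1.58, SE 0.074, edgeR adjusted p = 5.98e-11). Its copy on chromosome 3 has the same sequence. The passenger arms differ in sequence, and both were higher, with miR-16-1-3p at 28.9 to 36.5 CPM in Macs (2.41) and miR-16-2-3p at 5.23 to 13.6 CPM (3.55). miR-195a-5p, with the same seed but another locus, held 33.7, 35.3, 33.2 and 36.5 CPM in Macs against 587 to 686 in ECs and 676 to 1030 in PDGFR-β+ cells. PT cells, at 15.8 to 38.1 CPM, overlapped Macs, and the log2 difference from the mean was -2.84.

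The let-7 family, which represses growth and pluripotency genes, was the largest seed family of Macs. None of its 12 tested loci was higher, 4 were lower and 8 were not called with TMM (27.6% higher and 33.3% lower over all loci), whereas with library size only 8 were higher and 3 lower. The most abundant locus of all in Macs was let-7f-5p on chromosome X, at 73200, 76900, 74200 and 81700 CPM. ECs held 84900 to 103000, PT cells 48500 to 58300 and PDGFR-β+ cells 81200 to 111000 CPM, so that Macs lay between them (log2 difference -0.03, edgeR adjusted p = 0.841, and 0.91 with library size only). let-7b-5p, by contrast, was low in Macs under either scaling, at 565, 643, 575 and 687 CPM against 6390 to 9710 in ECs, 3630 to 5030 in PDGFR-β+ cells and 6230 to 7410 in PT cells (log2 difference -3.34, SE 0.099, edgeR adjusted p = 4.93e-13). The cluster that holds let-7b and a copy of let-7c on chromosome 15 had 4 of 4 loci lower than each other cell type. The passenger arm let-7b-3p was among the loci furthest below the rest, at 11.2 to 15.4 CPM in Macs and 85.5 to 203 elsewhere.

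The remaining families are to be read against 27.6% of all loci higher and 33.3% lower, which several counts lie near. miR-30, abundant in tubule and other kidney cells, had 6 of 9 loci lower and 0 higher with TMM, but 4 lower and 3 higher with library size only. miR-30a-5p held 12500, 10500, 13300 and 12900 CPM in Macs and 29200 to 76600 CPM elsewhere (-1.82, edgeR adjusted p = 4.36e-11, and -0.89 with library size only). The miR-29 family, known for repressing collagen genes, had 3 of 7 loci higher and 2 lower (4 and 0 with library size only). miR-29a-3p was at 2730 to 3100 CPM in Macs and 2480 to 3400 in ECs, and with TMM it was called against PT and PDGFR-β+ cells but not ECs (0.04). With library size only it was higher than each, and by 1.37 against ECs. The miR-181 family, known from lymphocyte signalling, had 4 higher and 4 lower of 8 (4 and 2 with library size only), and the miR-23/27/24 clusters 4 and 4 of 10 (4 and 3). The loci of miR-221 and miR-222, cell-cycle regulators, had 0 calls of 4, although all 4 were higher than the mean with library size only. Even then miR-222-3p and miR-221-3p were called lower than PT cells (-1.02 and -0.94) and higher than ECs and PDGFR-β+ cells.

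The miRNAs furthest below the other cells included those of the Hox gene clusters, whose host genes pattern the body axis. All 12 tested loci embedded in Hox clusters were lower in Macs under either scaling, with log2 differences from -4.35 to -2.12 and a median of -3.42, and 10 of them were lower than each other cell type (4 with library size only), against 11.5% of all loci. This list was made after the values were seen, and it counts both arms of a hairpin as separate loci. The -4.35 was that of miR-196b-3p, near the limit of detection at a mean of 0.12 CPM in Macs. Its means in the other cell types were 1.49 to 4.61 CPM. Means in Macs were also low for miR-196a-1-3p (0.419 CPM) and miR-615-5p (0.711 CPM). miR-10b-5p, in an intron of Hoxd3 and Hoxd4 at chr2:74726074-74726096, held 14400, 10100, 16000 and 11600 CPM in Macs. PT cells held 62600 to 75600, ECs 118000 to 187000 and PDGFR-β+ cells 230000 to 314000 CPM, all above every Mac library (log2 difference -3.5, SE 0.159, edgeR adjusted p = 4.36e-11). miR-10a-5p, at chr11:96317186-96317208, remained among the 5 most abundant loci of Macs at 33500, 33900, 42000 and 38600 CPM, below PT cells (59400 to 70500 CPM), PDGFR-β+ cells (173000 to 213000 CPM) and ECs (295000 to 393000 CPM). Its log2 difference was -2.12 (SE 0.096, edgeR adjusted p = 4.36e-11), and with library size only it was not called against PT cells (-0.56). miR-196b-5p, in an exon of Hoxa9, held 43.2, 31.9, 48.3 and 45.6 CPM in Macs against 354 to 475 in ECs, 771 to 1150 in PDGFR-β+ cells and 1190 to 1530 in PT cells (-4.28, SE 0.169, edgeR adjusted p = 1.2e-11). The means of miR-10b-3p followed the order of miR-10b-5p at lower levels, with 0.209 to 2.4 CPM in Macs and 9.32 to 69.9 CPM elsewhere. Mac replicates 2 and 3 held 1 count each.

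Other loci were low in Macs without a Hox host. miR-130a-3p, at chr2:84741116-84741137, held 87.6, 55.2, 98.5 and 80.5 CPM in Macs. ECs held 762 to 862, PT cells 875 to 1120 and PDGFR-β+ cells 2840 to 3940 CPM, with a log2 difference of -4.12 (SE 0.165, edgeR adjusted p = 1.2e-11) and -3.19 with library size only. miR-151-3p, in an intron of Ptk2, held 302, 216, 277 and 399 CPM in Macs, 2770 to 3060 in PT cells, 4440 to 5840 in PDGFR-β+ cells and 13700 to 15500 in ECs (-4.34, SE 0.156, edgeR adjusted p = 3.23e-12). miR-204-5p was lower than each, at 24.8 to 49.5 CPM in Macs against 91.3 to 143 in PT cells and 507 to 3750 in the other cells. Loci that mark other cells were low in Macs but not absent. miR-126a-5p held 965, 239, 1190 and 2590 CPM against 122000 to 146000 in ECs, and Macs overlapped PT cells and PDGFR-β+ cells. miR-127-3p, from the imprinted Dlk1-Dio3 region, held 9.55, 1.71, 4.39 and 58.1 CPM in Macs against 2650 to 3910 in ECs and 202 to 638 in PDGFR-β+ cells. Mac replicate 4 was highest for both, and the part of carried-over ECs in this was not tested. miR-192-5p, a tubule marker, held 3240, 3260, 3260 and 4620 CPM in Macs, near ECs (2660 to 4240) and PDGFR-β+ cells (1920 to 3640), and 101000 to 127000 in PT cells.

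miRNAs of 1 genomic cluster were compared with each other. Loci within 10 kb on 1 strand were joined, which gave 24 clusters with at least 4 tested loci. In 4 of them all tested loci (22 loci) were higher in Macs, and in 4 all (17 loci) were lower. The other 16 were not wholly called in 1 direction, and 3 of these had calls in both. The clusters wholly higher were miR-17 to miR-92a, both miR-15/16 clusters and a cluster of 5 tested loci on chromosome X in introns of Clcn5. With miR-532-5p, which lies just beyond its end, 6 of 6 tested Clcn5 loci were higher and 5 were higher than each other cell type, with a median of 3.24 and the same counts with library size only. Over all loci 27.6% were higher and 17.6% higher than each. The Clcn5 list was made after the values were seen. Among its loci, miR-500-3p matches miR-501-3p at 18 of 22 positions and had 4.5% to 5.63% of its level in Macs. miR-532-5p held 1530, 1460, 1300 and 1600 CPM in Macs and 81.1 to 207 CPM elsewhere (log2 difference 3.31, SE 0.109, edgeR adjusted p = 1.41e-12). miR-501-3p held 572, 538, 426 and 516 CPM in Macs against 14 to 29.3 in ECs and PDGFR-β+ cells and 61.5 to 91.1 in PT cells. The clusters wholly lower were miR-200b/200a/429, of epithelial cells, miR-192/194, of tubule cells, miR-30c/30e, and let-7b with let-7c. With library size only these 4 kept 3 of 5, 3 of 4, 1 of 4 and 3 of 4 loci lower, while the 4 clusters wholly higher stayed so. Over the 24 clusters, library size only gave 7 wholly higher and 0 wholly lower.

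**Figure D4:**
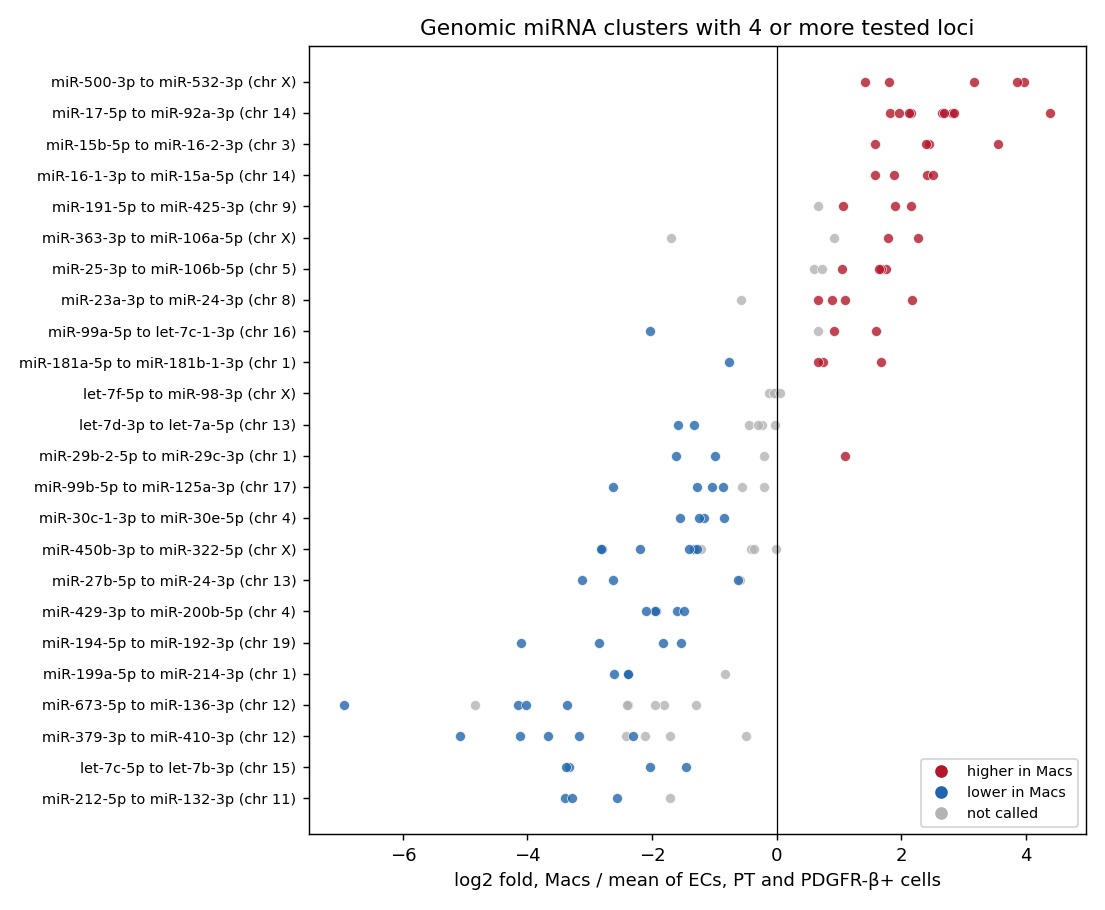
Each line is 1 of the 24 genomic clusters with at least 4 tested loci, and each point 1 locus at its log2 fold between Macs and the mean of the other 3 cell types. Red points were called higher, blue lower and grey neither. In the miR-17 to miR-92a cluster all 9 points lie from 1.82 to 4.39.

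Members of 1 seed family did not always move together. Of 41 seeds with at least 2 tested mature names, 10 had calls in both directions with TMM against the mean of the others. The number was not counted with library size only, under which at least the miR-29 seed was no longer split (miR-29c-3p -0.05, not called). In the seed AUUGCAC, miR-92a-3p, miR-25-3p and miR-32-5p were higher in Macs, while miR-92b-3p held 21, 18.2, 30.3 and 29.3 CPM in Macs against 98.7 to 151 in ECs, 545 to 700 in PDGFR-β+ cells and 442 to 530 in PT cells. Its log2 difference was -3.75 (SE 0.193, edgeR adjusted p = 1.72e-10), and -2.82 with library size only. In the seed AGUGCAA, miR-130b-3p was higher than each other cell type at 160, 156, 97.2 and 135 CPM against 4.61 to 41.4 CPM (3.03, SE 0.196, edgeR adjusted p = 2.75e-09), whereas miR-130a-3p was lower than each under either scaling. miR-301a-3p was lower than each with TMM (-1.12 against the mean) but not called against the mean with library size only (-0.18, edgeR adjusted p = 0.189). miR-27a-3p and miR-27b-3p, which share UCACAGU, differed likewise against the mean. miR-27b-3p held 7450, 5260, 7470 and 8350 CPM in Macs and 93400 to 102000 in ECs (-2.63), and miR-27a-3p held 2060, 1670, 1890 and 2160 CPM in Macs and 4070 to 4910 in ECs. Against the mean the log2 difference of miR-27a-3p was 0.89 (1.83 with library size only), and PT cells held 87.6 to 107 CPM. Against ECs it was -1.15 with TMM but 0.18 and not called with library size only, and against PDGFR-β+ cells -0.53 and 0.73. miR-99a-5p and miR-100-5p, with the seed ACCCGUA, stood at 729 to 979 and 10.7 to 61.2 CPM in Macs, with log2 differences from the mean of the others of 1.6 and -1.91 (2.54 and -0.97 with library size only).

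Copies that give the same main strand can be told apart by their other arm. miR-125b has 2 genomic copies with the same 5p strand. The 3p arm of the copy on chromosome 16 (Mir99ahg), miR-125b-2-3p, held 190, 218, 207 and 204 CPM in Macs and 45.9 to 114 CPM elsewhere, and it was higher than each (1.32, SE 0.161, edgeR adjusted p = 3.53e-06). The arm of the copy on chromosome 9, miR-125b-1-3p, held 3.38, 2.28, 1.67 and 2.24 CPM in Macs and 7 to 82.5 CPM elsewhere, and it was lower than each (-3.32, SE 0.257, edgeR adjusted p = 2.17e-08). miR-99a-5p lies in the same host, Mir99ahg, as the chromosome 16 copy, but not within 10 kb of it. miR-100-5p lies on chromosome 9, as the other copy does. Against the mean of the others they moved in the same directions as these arms. Unlike miR-125b-1-3p, miR-100-5p was not below PT cells, at 10.7 to 61.2 CPM in Macs and 4.66 to 14.9 in PT cells. With library size only it was called higher than PT cells (1.76, edgeR adjusted p = 0.00948). For let-7c the copies could not be told apart as clearly. The shared strand let-7c-5p was lower in Macs at 4300 to 4900 CPM. Its passenger arm let-7c-2-3p on chromosome 15 was lower than each (-1.45), but not called with library size only (-0.52). The arm let-7c-1-3p on chromosome 16 was not called (0.66), but called higher with library size only (1.59). It was scarce, at 1.42 to 4.81 CPM in Macs and 2.79 to 5.59 CPM in PT cells.

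**Figure D5:**
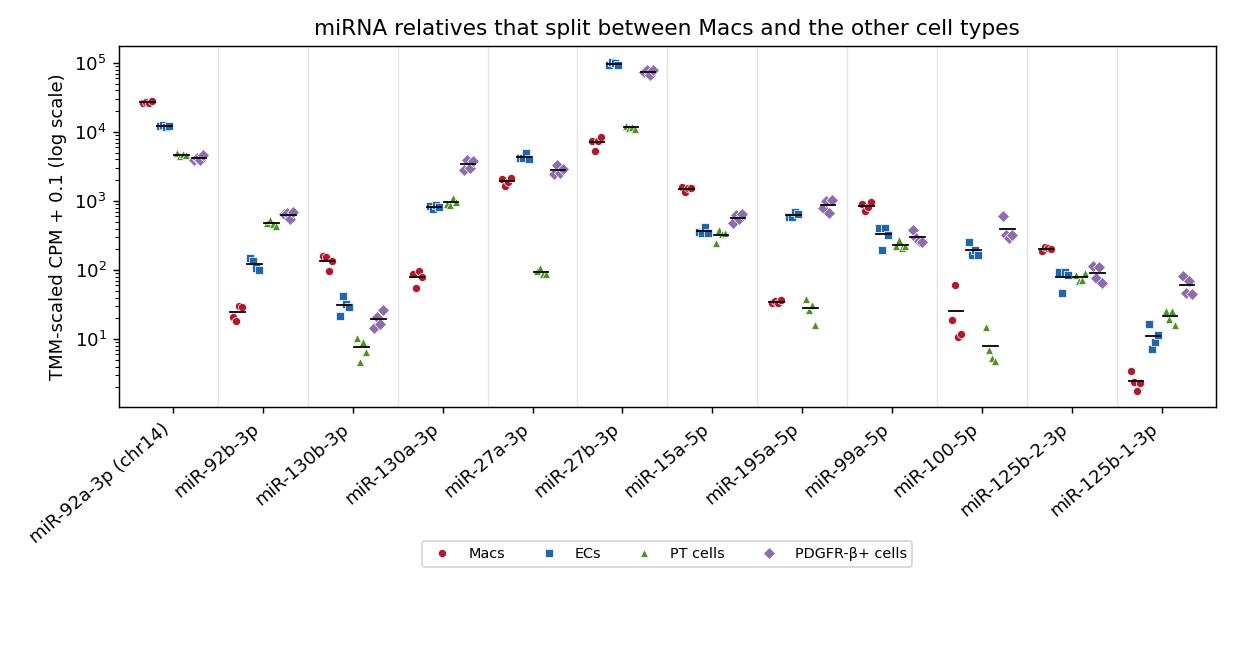
Each symbol is 1 of the 16 sham libraries, placed by TMM-scaled CPM plus 0.1 on a log scale, for relatives that share a seed or a main strand. Macs are the highest group for miR-92a-3p, miR-130b-3p, miR-99a-5p and miR-125b-2-3p, and the lowest for miR-92b-3p, miR-130a-3p, miR-27b-3p and miR-125b-1-3p.

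The balance between the arms of a hairpin was compared on the log2 scale of 5p over 3p counts (0.5 added to each), in 106 hairpins with both arms measured, with limma. It differed between Macs and the mean of the others in 22 (20.8%), 12 with more 5p (11.3%) and 10 with more 3p (9.43%) in Macs, and in 11 (10.4%) the libraries did not overlap. Of the 22, 4 hairpins are 2 pairs annotated on the same bases in opposite order (Mir24-2 with Mir3074-2 and Mir203 with Gm51289), so each pair is 1 measurement counted once in each direction. The largest was Mir125b-1, at 8.28 ± 0.368 (SD, n = 4) in Macs and 3.28 to 5.64 as means of the other cell types (difference 3.95, SE 0.177, limma adjusted p = 1.85e-08). Its 5p strand is shared with the chromosome 16 copy, so this repeats the difference between the 3p arms. Mir181b-1, whose 5p strand also has another copy, was shifted towards 3p (difference -2.39), and Mir322, on chromosome X, towards 5p (1.86) (limma adjusted p = 0.00291 and 0.000633). Mir139 was near the threshold (1.84, limma adjusted p = 0.049).

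Summed by seed, 324 families were tested, of which 74 (22.8%) were higher and 111 (34.3%) lower in Macs, with 47 (14.5%) higher than each other cell type. The let-7 seed GAGGUAG took 19.9% ± 0.655 (SD, n = 4) of all counts in Macs and 13.1% in ECs, but its log2 difference was -0.62 with TMM, a call as lower, and 0.38 without a call with library size only. UCAAGUA (miR-26) took 9.15%, ACCCUGU (miR-10) 8.13%, GAGAACU (miR-146) 7.85% and ACAUUCA (miR-181) 7.13%; the seeds of miR-26 and miR-181 were not called with TMM (-0.38 and 0.3) and were higher with library size only (0.62 and 1.31). The miR-146 seed took 7.38% to 8.32% in the Mac libraries and at most 0.217% in any other library (log2 difference 5.67, SE 0.117, edgeR adjusted p = 9.64e-15), while the miR-10 seed took 31.1% of counts in ECs and 32.9% in PDGFR-β+ cells (-2.91). The largest differences were those of the seeds of miR-142a (AUAAAGU 8.93, GUAGUGU 9.34). The lowest were CGGAUCC (miR-127-3p, -4.43), AGUAGAC (miR-411-5p, -4.4) and UCCCUUU (miR-204-5p, -4.31), the first 2 of which were not called against PT cells. Loci with no sequence kept here, because the reference held none or because they lie on chromosome 18, are not in these sums. They took 26.9% to 29.8% of counts in PDGFR-β+ cells and 4.64% to 4.89% in Macs. The ranking of seeds therefore leaves out miR-5107, on chromosome 18.

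The same comparison was made within each injured condition, which used other mice and other libraries. Of the 84 loci higher in sham Macs than in each other cell type, 76 were also so in UUO-2 (22.1% of all loci tested there), 60 in UUO-7 (18.8%, 15 libraries) and 61 in R-UUO (14.4%), and 0 turned lower. In all 3 conditions 54 were called and in none 6. Of the 55 lower loci, 32 were called again in UUO-2 (11.8% of all loci tested there), 32 in UUO-7 (13.2%) and 23 in R-UUO (7.1%), 21 of them in all 3. miR-142a-5p had mean levels of 26900, 19400 and 18900 CPM in Macs of UUO-2, UUO-7 and R-UUO, with log2 differences of 7.46, 6.55 and 7.32. miR-223-3p had 7.91, 6.43 and 7.17, and miR-342-3p 4.54, 4.45 and 4.23. miR-21a-5p was at 66100, 47100 and 55800 CPM in these Macs, with log2 differences of 2.39, 1.17 and 1.74, and in UUO-7 and R-UUO it was no longer higher than each other cell type. miR-155-5p was likewise higher than each in UUO-2 only among the injured conditions. miR-10b-5p and miR-130a-3p were lower than each in all 3. The change of these differences from sham was not tested.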

How the data were processed

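Small RNA was sequenced from FACS-sorted cells. Per the labels and the study's methods, the authors trimmed reads with Trim Galore 0.4.1 and cutadapt 1.1, aligned them to GRCm38 with Bowtie through ShortStack against miRBase loci, and deposited raw read counts per locus; strand use and the placement of reads that match several loci were not given in the sources used here. The deposited counts were used as they stood, for the 16 sham libraries (622689 to 10819385 counts). Each locus with enough counts (filterByExpr) was scaled by TMM and tested with edgeR 4.0.16 (R 4.3.3), with cell type and mouse as terms; calls needed a Benjamini-Hochberg adjusted p under 0.05 and a fold over 1.5. Arm balance was tested with limma 3.58.1, for hairpins with a mean of at least 10 counts per arm. DESeq2 1.42.0, other scalings and filters, thinning and leaving out mice were alternatives. The tests were tried on simulated counts.

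Libraries were paired by the mouse number in their titles, which marks 1 animal. Deviations of same-mouse libraries correlated from -0.15 to 0.336 (median 0.09, 24 pairs; -0.03 between mice). Replicate libraries differed beyond sampling noise. Named loci were the members of fixed lists (highest in Macs and any that went against its list) and the 5 most abundant in Macs. The 10 furthest above and 5 furthest below each other cell type were added, from loci without overlap of libraries. These needed a mean of at least 10 CPM, in Macs for the first and in each other cell type for the second. With them came 4 hairpins and 11 seed families. A further 36 loci were named after their values were seen. The members and lists were chosen with earlier results of these data known. Mature sequences came from RefSeq and matched 1734 loci by name and coordinates and 6 by name alone. Sequences and seeds of loci on chromosome 18 were then left out. The depth limits precision through counting error, which is greatest in PT cells. It also affects which loci are tested, as thinning to the smallest depth left 318 in place of 478.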

Additional observations from a re-analysis of the deposited data

Results flagged for a closer look

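In 393 groups of 4 libraries, 23 held a library whose distance to the next, as a share of the group's range, passed Dixon's 95% critical value, which chance gives in about 1 in 20 groups; 8 were in Macs, 6 in ECs, 4 in PDGFR-β+ cells and 5 in PT cells. Among Macs, replicate 1 was low for miR-155-5p (35.4 CPM against 85.3 to 95) and high for miR-200b-3p (240 against 192 to 197). Mac replicate 2 was high for miR-342-3p (1610), miR-511-3p (68) and miR-100-5p (61.2 against 10.7 to 18.6), and low for let-7i-5p (6450). Mac replicate 4 was high for miR-192-5p (4620 against 3240 to 3260) and miR-127-3p (58.1 against 1.71 to 9.55). Among ECs, replicate 3 was high for miR-26a-5p (65000), miR-27a-3p (4910), miR-30e-5p (8610), miR-429-3p (312) and miR-15b-5p (56.6), and replicate 2 for miR-181b-5p (1640). PT replicate 1 was high for miR-23a-3p (80.9) and low for miR-192-5p (101000) and miR-194-5p (2240), and PT replicate 4 was high for miR-5107-5p (3.73 against 0) and let-7b-5p (7410). PDGFR-β+ replicate 3 was high for miR-223-3p (51.7 against 2.7 to 3.84) and low for let-7i-5p (9270), replicate 2 was high for miR-223-5p (1.5 against 0), and replicate 1 for miR-100-5p (608 against 294 to 327).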

How the results depend on the processing

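Scaling changed most. With library size only, 221 loci were higher and 93 lower in Macs than the mean of the others, 233 and 110 against ECs, and 243 loci higher and 95 lower against PDGFR-β+ cells. Lower than each other cell type were 18, seed families stood at 142 higher and 65 lower, and of a larger set of 117 loci higher than each in sham, 94 and 92 were also so in UUO-7 and R-UUO. Among named loci called under either scaling, signs turned for let-7f-5p (0.91), miR-26a-5p (0.75), miR-125a-5p (0.07), let-7a-5p (0.68), let-7g-5p (0.84), miR-181b-5p (0.18), miR-30e-5p (0.1) and miR-150-5p (0.87). Thinning to the smallest depth, which leaves fewer loci tested, left 119 loci lower than ECs, and requiring 100 counts per arm left 10 hairpins. Without the mouse block (pairing ignored), 134 loci were higher and 161 lower, with 23 hairpins, 73 and 110 seed families, and 77, 60 and 60 loci in the injured conditions, so no call count moved by over 1.5 times. Leaving out each mouse gave 123 to 137 higher and 138 to 153 lower against the mean, 107 to 118 and 169 to 185 against ECs, 116 to 140 and 138 to 148 against PT cells, 148 to 151 and 150 to 170 against PDGFR-β+ cells, 71 to 83 higher and 48 to 53 lower than each, 16 to 21 hairpins, and 67 to 76 and 98 to 109 seed families. RLE factors gave 144 and 152, DESeq2 146 and 181, no filter 154 and 166, summed copies 126 and 141, and, chosen after seeing the data, overlapping loci counted once 127 and 149 and no PDGFR-β+ replicate 3 145 and 173. Of 1332 values of named loci under alternatives, 1307 kept their call or stayed uncalled, 3 fell below the threshold, 14 passed it and 8 turned sign. A turned sign was counted only where the main or the alternative value was called. Uncalled values among the 1307 could therefore turn sign. The depth of PT libraries limits what can be said of loci under about 3.46 CPM there.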
